A study of Mus musculus with 38 samples.

Results

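The comparison described here is that of RNA from neural stem and progenitor cells (NSPCs) of 18-month-old mice with RNA from NSPCs of 3-month-old mice of the strain C57BL/6J/Babr, across genes. Of 25965 genes in the expression table, 13280 had a mean log2 RPM of at least 0 over the 6 libraries (RPM, reads per 1000000 mapped), and 12828 of these remained once genes on chromosomes X and Y were left out, 13 of them on the mitochondrial genome. All mice were male. The cells came from the subventricular zone (SVZ) and were grown as free-floating neurospheres in a defined medium with EGF, FGF-2, B27 and heparin, and the RNA was taken at the second passage. Each of the 3 young adult and 3 aged cultures was started from pooled SVZ tissue of several mice, so 1 library stands for a pool and not for 1 animal. The 3 derivations were made on different days, and the libraries carry the replicate numbers 1 to 3 at each age. Libraries held between 16952482 and 41053985 mapped reads, of which 65.5% to 68.8% fell on genes.

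NSPCs of the adult SVZ line the lateral ventricles and give rise to neuroblasts of the olfactory bulb, to astrocytes and to oligodendrocytes. EGF and FGF-2 keep dissociated SVZ cells dividing as neurospheres, which hold stem cells together with their more committed progeny. Fewer young neurons are made in the aged SVZ, and cultures allow the age of the donor to be compared while the surroundings of the cells are held alike.

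Among the markers of NSPCs, Nes, the intermediate filament nestin, stood at 10.43 ± 0.09 log2 RPM (SD, n = 3) at 3 months and 10.42 ± 0.10 (n = 3) at 18 months. Sox2, a transcription factor of neural progenitors, stood at 7.01 ± 0.14 and 7.13 ± 0.16. Prom1 was the lowest, at 2.49 to 3.04 log2 RPM. Fabp7 (log2 fold change -0.19), Slc1a3 (-0.20), Vim (-0.19), Prom1 (-0.26), Nr2e1 (-0.06) and Nes (-0.01) were lower at 18 months in all 3 numbers. Sox2 (0.12) and Egfr (0.17) were higher in all 3, and Msi1 (-0.06) was mixed. None of them passed an adjusted p of 0.05 (limma). The 9 NSPC markers together made up 7522 to 8582 RPM in the young adult and 6875 to 8158 RPM in the aged libraries. Among 6 markers of microglia and blood, 5 were at or near 0. Ptprc and C1qa had 0 reads in all libraries and Aif1, Cx3cr1 and Hba-a1 at most 1. Csf1r, the receptor of a macrophage growth factor, was the exception with 2.31 to 2.73 log2 RPM in the 6 libraries, and the 6 markers summed to 5.24 to 6.67 RPM at 3 months and 4.95 to 5.85 RPM at 18 months. The 8 endothelial, pericyte and fibroblast markers summed to at most 6.82 RPM in a young adult and 3.76 RPM in an aged library. The 4 measured ependymal and choroid plexus markers summed to 31.4 to 102.2 RPM at 3 months and 34.5 to 94.3 RPM at 18 months. In the wider list of these cells, 3 of 8 genes were lower and 0 higher in all 3 replicate numbers. Its median log2 fold change was -0.20 (0.08, -0.36 and -0.25 in numbers 1 to 3). The 8 astrocyte markers summed to 1813 to 2136 RPM at 3 months against 1648 to 1708 RPM at 18 months. This separation of the ranges rested on the most abundant of them, Aldh1l1, without which they overlapped (724.8 to 960.4 against 593.5 to 922.8 RPM). That sum was added after the data were seen. Within each number it was still lower at 18 months (724.8 and 593.5, 856.3 and 680.3, 960.4 and 922.8 RPM). The NSPC sum and the microglia and blood sum were likewise lower at 18 months in all 3 numbers. In such bulk samples, fewer cells of a type and less RNA per cell cannot be told apart.

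Most genes had nearly the same RNA level at both ages. Of the 12828 genes, 11785 (91.9%) had a log2 fold change (18 minus 3 months) of less than 0.25 in size, and the median over all genes was 0.00. In a limma fit that used the replicate number as a block, 64 genes were past an adjusted p of 0.05, of which 29 were higher and 35 were lower at 18 months, which is 0.226% and 0.273% of the genes tested. These 64 are said below to have risen or fallen. Only 7 of them changed by at least 2-fold, 3 upward and 4 downward, and 4 of these 7 did not pass by DESeq2 with the same block (adjusted p = 0.112 for Fam5c, 0.224 for Kcnd2, 0.169 for Zic1 and 0.190 for Icam1). The level limit used the mean of both ages, and several of the 7 reached it only through the age at which they were higher. Fam5c averaged -0.64 log2 RPM at 3 months. Zic1 (-1.37), Icam1 (-0.29), F2rl1 (-0.18) and Ccdc8 (-0.11) averaged below 0 at 18 months. The block decides whether any gene is called, and in limma so does the mean-variance trend. With the block but no trend, limma called 0 genes. Without the block, limma called 0 genes (209 at an unadjusted p under 0.05, against 1058 with the block) and edgeR also called 0 (200 at an unadjusted p under 0.05). Libraries of the same number deviated together from the mean of their age (Pearson's r over genes 0.73, 0.20 and 0.83 for numbers 1 to 3), and a difference between ages was therefore read within each number. All 64 genes had one direction in all 3 numbers, but the libraries of the 2 ages did not overlap for only 23 of them, against 4.92% of all genes.

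**Figure D1:**
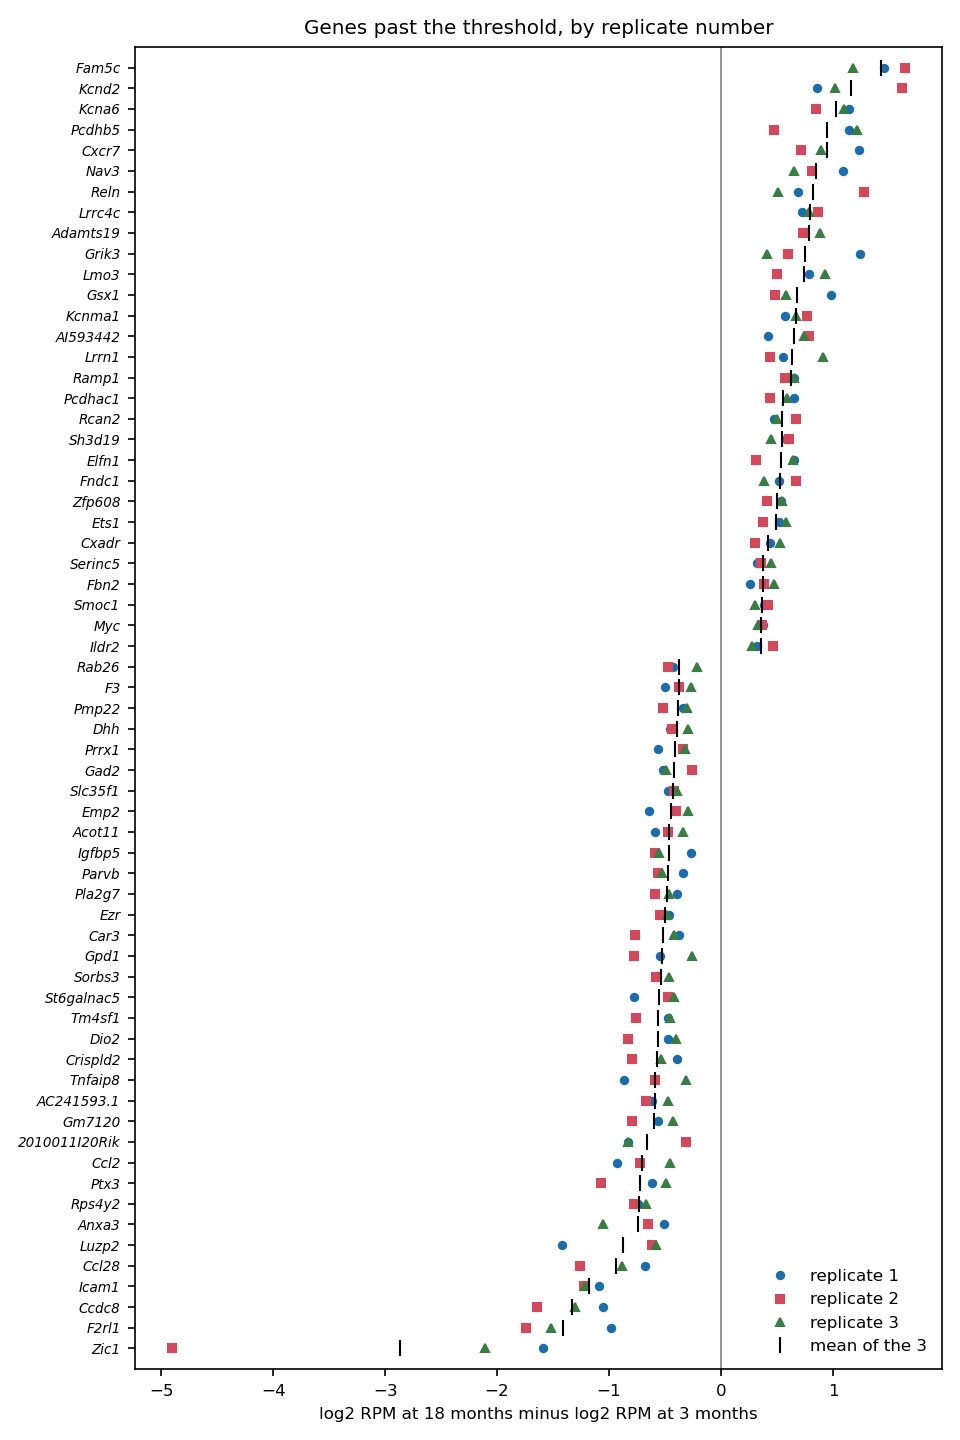
Log2 RPM at 18 months minus log2 RPM at 3 months for 63 of the 64 genes past the threshold, with 1 coloured point for each replicate number and a black bar for the mean of the 3. The 29 genes at the top lie to the right of 0 and those at the bottom to the left in every number, and Zic1 has the largest spread between numbers (from -1.59 to -4.90).

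The 3 rises of at least 2-fold were those of Fam5c and of the genes for a pair of potassium channel subunits, Kcnd2 and Kcna6. Fam5c (also Brinp3), which encodes a neural protein inducible by bone morphogenetic protein and retinoic acid, rose by 1.43 ± 0.23 on the log2 scale (SE; 2.69-fold; adjusted p = 0.0253, limma). Its log2 RPM was -0.55, -0.91 and -0.46 in young adult libraries 1 to 3 and 0.91, 0.73 and 0.72 in the aged ones. The groups did not overlap, although the gene rested on as few as 9 reads in young adult library 2. Kcnd2 (chr6:21215503-21729805), a subunit of the A-type potassium channel, rose by 1.16 ± 0.22 (adjusted p = 0.0442, limma) with young adult levels of 0.16, -0.50 and 0.34 and aged levels of 1.02, 1.12 and 1.36. Kcna6 (chr6:126708329-126740662), a subunit of the delayed rectifier channels, rose by 1.03 ± 0.12 (adjusted p = 0.0129, limma). Its levels were 1.07, 2.47 and 2.50 at 3 months and 2.21, 3.32 and 3.60 at 18 months. The aged library of number 1 thus lay below the young adult libraries of numbers 2 and 3, while each number gave a similar rise of 0.85 to 1.14.

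Another 9 genes made up the 12 largest rises. Cxcr7 (also Ackr3), an atypical receptor that takes up the chemokine CXCL12, had levels of 2.23, 1.85 and 1.42 log2 RPM at 3 months and 3.46, 2.56 and 2.31 at 18 months (log2 fold change 0.94 ± 0.14, adjusted p = 0.0216, limma). All aged libraries were above all young adult ones. Reln, which encodes the secreted glycoprotein reelin that positions migrating neurons, had levels of 1.57, 1.89 and 2.83 and of 2.26, 3.17 and 3.34 (0.82 ± 0.15, adjusted p = 0.0409, limma), and here the groups overlapped. The others were Pcdhb5, Nav3, Lrrc4c, Adamts19, Grik3, Lmo3 and Gsx1, with log2 fold changes between 0.68 and 0.94. They encode, in that order, a clustered protocadherin, a neuron navigator, a netrin-G ligand, a secreted metalloprotease, a kainate receptor subunit, a LIM-only cofactor and a homeobox factor. Adamts19 rose by 0.75, 0.73 and 0.88 in numbers 1 to 3 (adjusted p = 0.0129, limma) and Lrrc4c by 0.72, 0.87 and 0.79 (adjusted p = 0.0240, limma).

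The deepest fall was that of Zic1 (chr9:91358058-91365810), a zinc finger transcription factor of dorsal neural patterning. Its levels were 0.73, 2.70 and 1.05 log2 RPM at 3 months and -0.86, -2.21 and -1.05 at 18 months, so that the groups did not overlap (log2 fold change -2.87 ± 0.48, adjusted p = 0.0306, limma). Behind them stood 68, 110 and 54 reads and 22, 6 and 19 reads. Replicate number 2 gave a difference of -4.90 and the others -1.59 and -2.10. The neighbouring Zic4 overlaps the gene on the opposite strand, and since the library kit does not keep the strand their reads cannot be told apart. Zic4 itself was below the level limit. F2rl1, a receptor cut open by trypsin-like proteases, fell by 1.41 on the log2 scale (SE 0.22, adjusted p = 0.0216, limma) from 2.85, 1.47 and -0.62 to 1.86, -0.27 and -2.13. The spread between numbers exceeded the difference between ages, and the groups overlapped.

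Inflammatory genes made up several of the other deep falls. Icam1 (chr9:21015960-21028797), an adhesion molecule that leukocyte integrins bind, had levels of 0.23, 0.82 and 1.62 log2 RPM at 3 months and -0.86, -0.40 and 0.40 at 18 months (log2 fold change -1.18 ± 0.21, adjusted p = 0.0394, limma). The drop was nearly the same in each number, from -1.09 to -1.22. Ptx3 (chr3:66219887-66225806), a secreted pentraxin, had levels of 3.68, 4.24 and 4.50 and of 3.07, 3.17 and 4.00 (-0.73 ± 0.11, adjusted p = 0.0216, limma). Among the 12 deepest falls were also the chemokine genes Ccl28 (-0.94) and Ccl2 (-0.70), the annexin gene Anxa3 (-0.74), and Ccdc8 (-1.33), Luzp2 (-0.87), 2010011I20Rik (-0.66) and Rps4y2 (-0.73). Rps4y2 lies on chromosome 6 and carries the name of a ribosomal protein S4 copy, and its reads may be shared with other copies. AC241593.1 and Gm7120, which fell by 0.59 each, overlap on the same strand of chromosome 13 and count as 1 locus. Ccl28 follows on that strand, from 119623819, after their shared end at 119610458. It did not pass by DESeq2 with the block (adjusted p = 0.159). Whether its fall is independent of theirs was not tested.

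**Figure D2:**
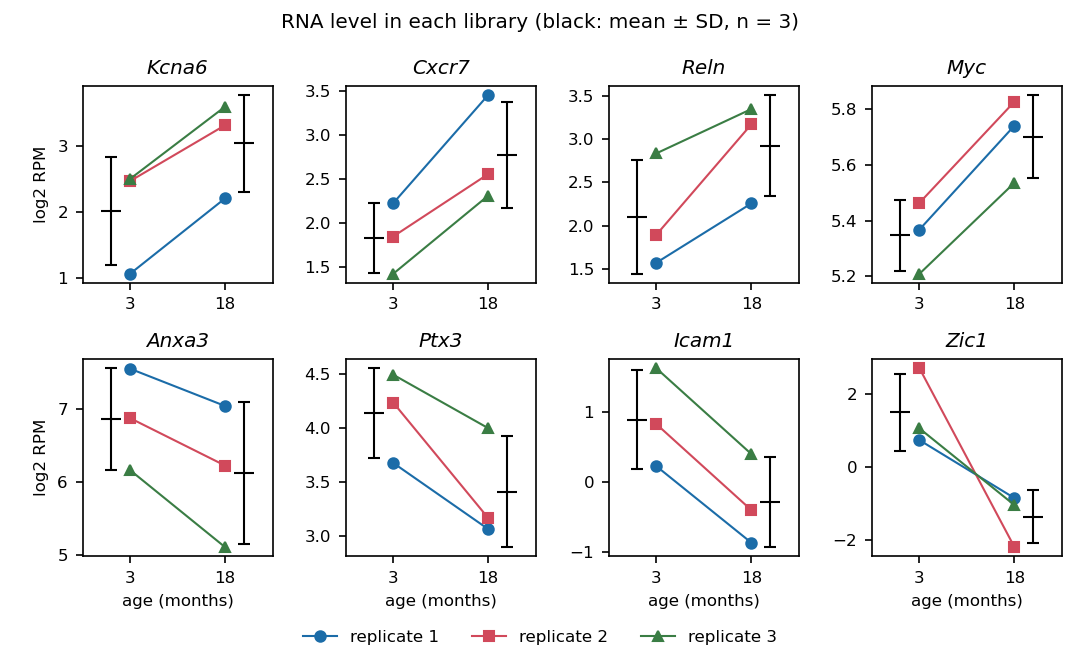
RNA level in log2 RPM of 8 genes in each library at 3 and 18 months of age, with the libraries of 1 replicate number joined by a line and the mean ± SD of each age (n = 3) in black. For Kcna6 the lines run nearly in parallel while the numbers differ in level, and for Anxa3 the fall differs between numbers (from -0.51 to -1.06). At Zic1 the line of number 2 crosses the others. The groups overlap for Kcna6, Reln, Anxa3, Ptx3 and Icam1.

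The promoters of 4 of these genes are shown because their RNA moved while they differ in CpG content, the dinucleotide at which DNA is methylated. They are from RefSeq (GRCm38.p6) and run from 250 bases before to 50 bases after the annotated start, 5′ to 3′ on the strand of the gene, with each CpG in capitals. Cxcr7 (listed as Ackr3) and Reln rose, and Icam1 and Ptx3 fell.
Ackr3 (chr1:90203730-90204029, plus strand): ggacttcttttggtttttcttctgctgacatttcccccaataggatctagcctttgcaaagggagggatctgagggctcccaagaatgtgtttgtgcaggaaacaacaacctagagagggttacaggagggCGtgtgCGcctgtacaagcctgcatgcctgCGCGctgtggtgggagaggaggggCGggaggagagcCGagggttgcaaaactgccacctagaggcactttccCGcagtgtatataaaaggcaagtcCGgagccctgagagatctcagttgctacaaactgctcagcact
Reln (chr5:22344656-22344955, minus strand): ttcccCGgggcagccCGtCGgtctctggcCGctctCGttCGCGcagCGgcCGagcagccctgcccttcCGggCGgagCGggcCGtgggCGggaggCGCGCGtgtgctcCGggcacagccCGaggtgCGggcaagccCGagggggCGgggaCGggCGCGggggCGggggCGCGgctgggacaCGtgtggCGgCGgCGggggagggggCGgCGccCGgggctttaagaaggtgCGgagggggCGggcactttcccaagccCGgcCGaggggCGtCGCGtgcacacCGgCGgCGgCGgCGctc
Icam1 (chr9:21015690-21015989, plus strand): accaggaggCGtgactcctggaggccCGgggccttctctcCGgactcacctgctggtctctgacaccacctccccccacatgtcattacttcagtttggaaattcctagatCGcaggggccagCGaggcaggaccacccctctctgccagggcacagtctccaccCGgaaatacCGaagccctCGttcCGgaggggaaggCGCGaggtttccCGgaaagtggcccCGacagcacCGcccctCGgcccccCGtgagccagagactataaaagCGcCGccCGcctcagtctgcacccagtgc
Ptx3 (chr3:66219637-66219936, plus strand): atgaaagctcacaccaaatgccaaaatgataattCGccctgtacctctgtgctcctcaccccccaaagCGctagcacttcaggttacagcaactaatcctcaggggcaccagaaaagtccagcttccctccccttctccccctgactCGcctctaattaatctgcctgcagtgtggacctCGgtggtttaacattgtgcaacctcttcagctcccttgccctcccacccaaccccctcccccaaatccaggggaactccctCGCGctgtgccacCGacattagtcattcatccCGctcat
These held 8, 47, 19 and 8 CpGs. A promoter was matched for 9074 of the genes and for 36 of the 64. The median was 20 CpGs over the 15 that rose, 14 over the 21 that fell and 22 over all 9074. At least 10 CpGs were found in 10 of the 15, in 14 of the 21 and in 88.7% of all.

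Potassium channel genes were among those that rose. Of 40 measured genes of voltage-gated and related channels, Kcnd2, Kcna6 and Kcnma1 rose. Kcnma1, the large-conductance calcium-activated potassium channel, rose by 0.67 ± 0.10 (adjusted p = 0.0216, limma), with levels of 2.76, 2.98 and 2.70 log2 RPM at 3 months and of 3.34, 3.75 and 3.36 at 18 months. Its groups did not overlap. With the called genes included, 16 of the 40 were higher at 18 months in all 3 numbers and 8 were lower in all 3. Over all genes these counts were 2074 (16.2%) and 1711 (13.3%). Once the trend with gene length was removed, the median of the channel list went from 0.06 to 0.03. Kcnd2 then no longer passed (adjusted p = 0.0582, limma).

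Genes of synapses and of cell adhesion were more often higher than lower. In the list of synapse structure and release, 3 of 46 genes rose and 0 fell, and 18 were higher against 3 lower in all 3 numbers, with a median log2 fold change of 0.07. Those that rose were Lrrc4c (0.79), Lrrn1 (0.64) and Elfn1 (0.53), all of which encode leucine-rich repeat membrane proteins. Lrrn1 had levels of 4.21, 4.53 and 3.57 log2 RPM at 3 months and 4.76, 4.97 and 4.48 at 18 months. Among 51 cadherins and other adhesion genes, Reln and Cxadr, a junction protein that adenoviruses use as a receptor, rose and 0 fell, with 22 higher and 11 lower in all 3 numbers. The median of this list (0.07) dropped to 0.01 once the trend with gene length was removed. Neither Reln nor Cxadr then passed (adjusted p = 0.0582 and 0.0515, limma). Axon guidance genes gave 1 rise (Nav3, 0.85 ± 0.13, adjusted p = 0.0216, limma) among 57, with 14 higher and 11 lower in all 3 numbers. Of 30 genes of glutamate and GABA signalling, Grik3 rose (0.75 ± 0.14) and Gad2, a glutamate decarboxylase that makes GABA, fell by 0.42 (SE 0.08, adjusted p = 0.0425, limma). Gad2 stood at 5.42, 5.37 and 5.15 log2 RPM at 3 months and at 4.91, 5.12 and 4.65 at 18 months. The 7 neuroblast and neuron markers summed to 18.7 to 28.8 RPM in the young adult and 22.7 to 27.1 RPM in the aged libraries, so the ranges overlapped. Their sum was higher at 18 months in numbers 1 and 3 and lower in number 2.

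The clustered protocadherins, neighbouring genes whose variable exons give neurons distinct surface identities, had the highest median of the lists with more than 3 measured genes. Of 57 listed, only 23 had an entry in the expression table, and 20 passed the level limit. Their median log2 fold change was 0.46, with medians of 0.36, 0.23 and 0.41 in numbers 1 to 3 and 0.26 without number 1, and 12 were higher and 1 lower in all 3 numbers. Pcdhb5 rose from 0.81, 1.41 and 1.63 log2 RPM to 1.95, 1.88 and 2.85 (0.94 ± 0.17, adjusted p = 0.0403, limma), and its groups did not overlap. Pcdhac1 rose from 2.70, 2.98 and 3.22 to 3.34, 3.42 and 3.81 (0.56 ± 0.10, adjusted p = 0.0398, limma). Its entry spans 257373 bp (chr18:36930285-37187657), against a median length of 3574 bp in this list. No other listed protocadherin overlaps it, so its value does not stand for 1 variable exon alone. Genes of this cluster resemble each other in sequence and those of the alpha group share constant exons, so reads could be shared between them, and the 20 values are not independent.

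Inflammatory genes moved mainly the other way. Of 40 measured genes for chemokines, cytokine receptors and the NF-kappa-B pathway, Icam1, Ptx3, Ccl2, Ccl28 and Tnfaip8 fell and Cxcr7 rose, while 19 were lower and 6 higher in all 3 numbers, with a median of -0.10. Ccl2, which draws in monocytes, had levels of 2.21, 3.72 and 3.71 log2 RPM at 3 months and 1.28, 3.00 and 3.25 at 18 months (adjusted p = 0.0319, limma). Tnfaip8, a gene induced by tumour necrosis factor, went from 3.89, 3.67 and 3.99 to 3.02, 3.08 and 3.68 (adjusted p = 0.0476, limma). Of the blood and microglial markers given above, all but Csf1r were at or near 0 at both ages, and Csf1r differed by -0.11 ± 0.12. In the list of interferon response and antigen presentation, 0 of 42 genes passed the threshold with limma, 10 were lower and 1 higher in all 3 numbers, and the median of -0.17 was made of 0.15, -0.39 and -0.21 in numbers 1 to 3 (-0.33 without number 1 and -0.05 without number 2). The largest difference in this list that kept its direction was that of Ifi44 (-0.87 ± 0.26, adjusted p = 0.261, limma), which was -0.03 in number 1.

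**Figure D3:**
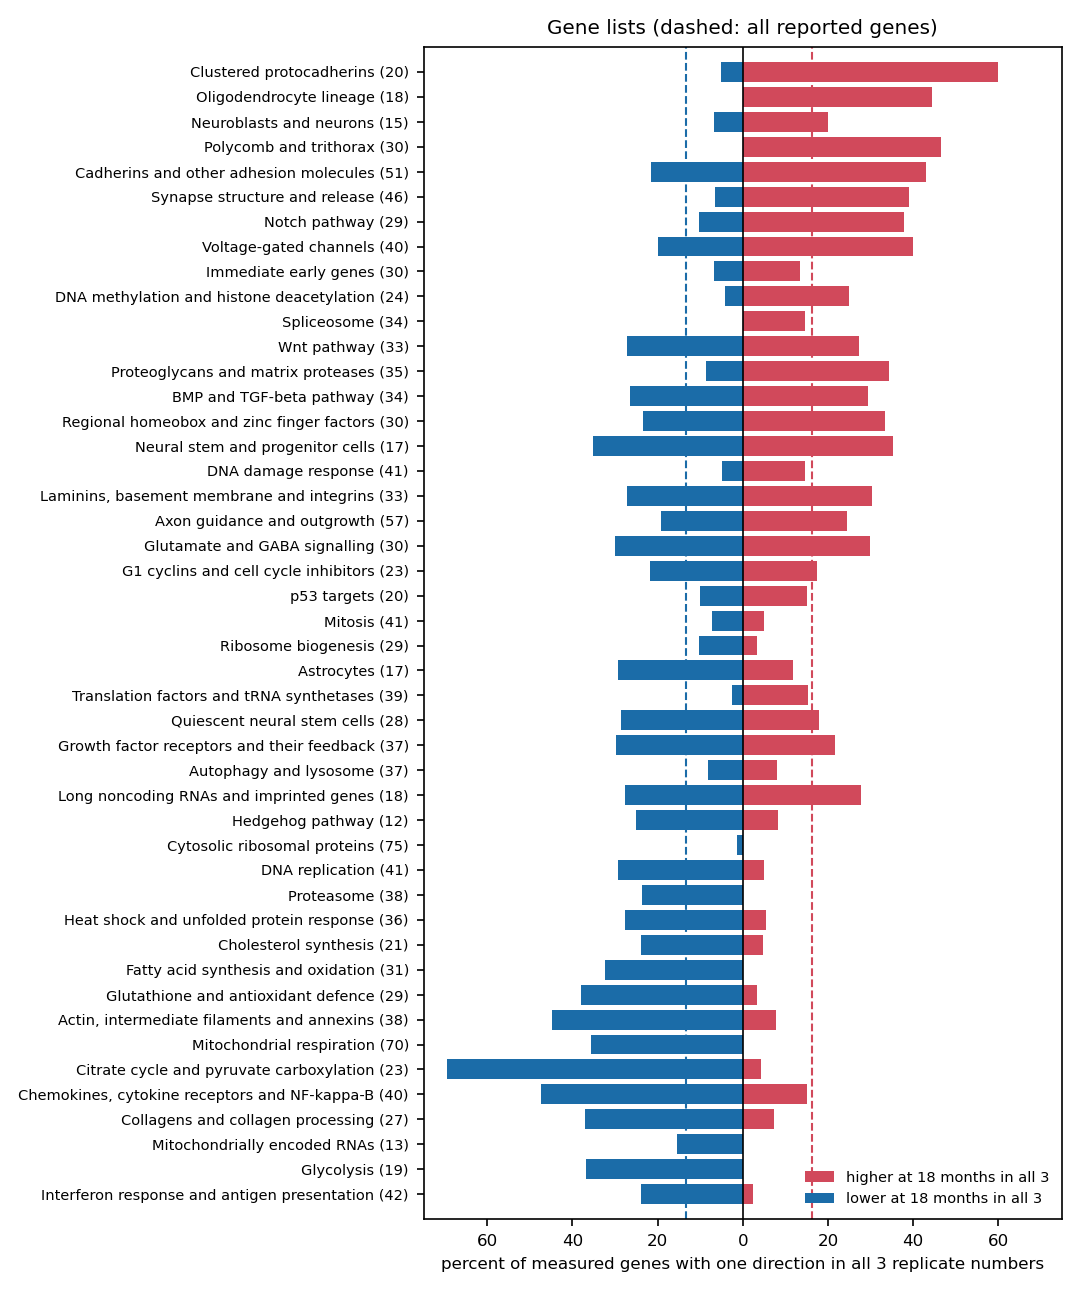
Percentage of the measured genes of each list that were higher (red, to the right) or lower (blue, to the left) at 18 months in all 3 replicate numbers, for lists with at least 12 measured genes (their number in brackets), ordered by median log2 fold change. Dashed lines mark the 16.2% and 13.3% over all 12828 genes, and clustered protocadherins (12 of 20) and the citrate cycle (16 of 23) reach farthest to the right and to the left.

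Genes of the actin cytoskeleton, the intermediate filaments and the annexins gave 4 falls and 0 rises among 38. Anxa3 (chr5:96793385-96845968), which binds phospholipids in the presence of calcium, stood at 7.55, 6.87 and 6.16 log2 RPM at 3 months and at 7.04, 6.22 and 5.10 at 18 months (-0.74 ± 0.09, adjusted p = 0.0137, limma). Ezr, which ties actin to the plasma membrane, fell by 0.50 (SE 0.07), Parvb, a partner of integrin-linked kinase, by 0.47 (SE 0.08), and Sorbs3, the adaptor vinexin, by 0.54 (SE 0.09). In all, 17 of the 38 were lower and 3 higher in all 3 numbers, with medians of -0.00, -0.25 and -0.12 in numbers 1 to 3 (over all 3 -0.09, without number 1 -0.19 and without number 2 -0.03). Tm4sf1, a tetraspanin-like membrane protein outside the lists, had one of the smallest adjusted p-values of the fallen genes (0.0137, limma) and moved from 7.07, 7.18 and 7.29 to 6.60, 6.42 and 6.83, with no overlap. Gfap, the filament protein of astrocytes and SVZ stem cells, stood at 6.99, 7.36 and 7.12 log2 RPM against 6.49, 6.36 and 6.99 (-0.54 ± 0.12) and did not pass (adjusted p = 0.0875, limma). Aldoc (-0.44 ± 0.11) and Aldh1l1 (-0.27 ± 0.09), both markers of astrocytes, did not pass either. Of the other 5 astrocyte markers, Glul differed by -0.22 ± 0.06 and was lower in all 3 numbers, Aqp4, Gja1 and Slc1a2 differed by -0.14, -0.05 and -0.01, and S100b by 0.39 ± 0.20. The whole list of 17 astrocyte genes had a median of -0.01 (0.08, -0.18 and 0.06 in numbers 1 to 3), with 2 genes higher and 5 lower in all 3 numbers. The part of the astrocyte marker sum (above) in these differences was not tested.

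Metabolic genes differed little, and mostly downward. Of 31 genes of fatty acid synthesis and oxidation, Gpd1, a cytosolic glycerol-3-phosphate dehydrogenase, fell by 0.53 (SE 0.09, adjusted p = 0.0301, limma) and Acot11, an acyl-CoA thioesterase, by 0.47 (SE 0.07, adjusted p = 0.0216, limma). Gpd1 overlaps Gm16537 and Acot11 overlaps Fam151a on the other strand, from which their reads could not be separated. In this list 10 genes were lower and 0 higher in all 3 numbers. In the list of the citrate cycle and pyruvate carboxylation 0 of 23 genes passed with limma, but 16 were lower and 1 was higher in all 3 numbers, with medians of -0.06, -0.13 and -0.05. Pcx, which carboxylates pyruvate, had the largest of these differences (-0.42 ± 0.09, adjusted p = 0.0852, limma), and Gpt2, a mitochondrial alanine aminotransferase, was the 1 higher gene (0.26 ± 0.07). Mitochondrial respiration (25 of 70 lower, 0 higher), glycolysis (7 of 19 lower, 0 higher) and antioxidant defence (11 of 29 lower, 1 higher) also leaned downward, with 0 genes past the threshold. Their medians in number 1 were 0.05, -0.01 and 0.02 and in number 2 were -0.27, -0.26 and -0.25, so the difference was largest in number 2.

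Genes of chromatin and of cell division showed no called change apart from Myc. Myc (chr15:61985391-61990374), a transcription factor that drives growth and entry into the cell cycle, rose by 0.35 ± 0.07 (adjusted p = 0.0452, limma). Its levels were 5.37, 5.46 and 5.21 log2 RPM at 3 months and 5.74, 5.83 and 5.54 at 18 months, without overlap. In the list of mitosis, 2 of 41 genes were higher and 3 lower in all 3 numbers (median -0.00), and in that of DNA replication 2 and 12 of 41 (median -0.05, without number 2 -0.01). The cell cycle inhibitor Cdkn1a stood at 8.05 ± 0.04 and 8.03 ± 0.16 log2 RPM. Of 30 Polycomb and trithorax genes, which set and remove the histone marks of silent and active genes, 0 passed the threshold with limma, yet 14 were higher and 0 lower in all 3 numbers, and the medians were 0.09, 0.07 and 0.08. Jarid2 (0.35 ± 0.08, adjusted p = 0.0875, limma) and Cbx2 (0.31 ± 0.10, adjusted p = 0.352, limma) had the largest differences among them. The cytosolic ribosomal proteins differed by 0.13, -0.24 and -0.03 in numbers 1 to 3, and 1 of 75 kept its direction.

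Transcription factors of regional identity moved one by one. Among 30 measured homeobox and zinc finger factors Zic1 and Prrx1 fell and Gsx1 rose. Prrx1 (chr1:163245116-163313710) stood at 5.94, 5.82 and 5.92 log2 RPM at 3 months and at 5.38, 5.48 and 5.59 at 18 months (-0.41 ± 0.07, adjusted p = 0.0394, limma). Gsx1 (chr5:147188696-147190947), a factor of the ventral progenitors, stood at 2.10, 2.97 and 2.15 against 3.08, 3.45 and 2.73 (0.68 ± 0.13, adjusted p = 0.0434, limma). Dbx2, a further homeobox factor, had levels of 5.65, 5.64 and 5.73 at 3 months and of 6.24, 5.74 and 6.42 at 18 months. Its difference of 0.46 ± 0.10 did not pass (adjusted p = 0.0805, limma), and number 2 gave 0.10. Dlx2, which promotes interneuron fate, did not pass either (-0.79 ± 0.20, adjusted p = 0.138, limma).

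In the oligodendrocyte lineage list 0 of 18 genes passed the threshold with limma, while 8 were higher and 0 lower in all 3 numbers, with medians of 0.12, 0.16 and 0.23. Gpr37 (0.47 ± 0.12, adjusted p = 0.134, limma) and Cldn11 (0.35 ± 0.13, adjusted p = 0.480, limma), both genes of myelinating cells, had the largest differences. The 8 defining markers of the lineage summed to 333.9 to 428 RPM in the young adult and 359 to 446 RPM in the aged libraries, and the ranges overlapped. Within each number the sum was higher at 18 months (333.9 and 359.1, 428 and 446.3, 402.7 and 442.3 RPM).

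Signalling genes gave few calls. Dhh, a hedgehog ligand, fell by 0.39 (SE 0.07, adjusted p = 0.0286, limma) and Igfbp5, which binds insulin-like growth factors, by 0.47 (SE 0.08, adjusted p = 0.0306, limma). Dhh stood at 6.68, 6.85 and 7.27 log2 RPM at 3 months and at 6.22, 6.42 and 6.98 at 18 months, so the groups overlapped. In the Notch list 0 of 29 genes passed with limma, while 11 were higher and 3 lower in all 3 numbers. The Notch ligands Dll4 (-0.68 ± 0.13, adjusted p = 0.0526, limma) and Dll1 (0.42 ± 0.08, adjusted p = 0.0575, limma) pointed in opposite directions. The other genes the study discusses included 3 that lay close to the threshold. Igf2bp2, an RNA-binding protein, differed by -0.60 ± 0.12 (adjusted p = 0.0571, limma), Tmcc3 by 0.39 ± 0.08 (0.0526) and the integrin gene Itgb5 by -0.33 ± 0.07 (0.0750). Of the extracellular matrix, Fbn2 (fibrillin), Smoc1 and Adamts19 rose and 0 fell among 33 laminin, basement membrane and integrin genes and 35 proteoglycan and protease genes. Among 27 collagen genes 0 passed with limma, and 10 were lower and 2 higher in all 3 numbers.

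Longer genes tended to be higher at 18 months, but not in every number. The genes that rose had a median length of 100807 bp from start to end, those that fell 16953 bp and all genes 22123 bp, and 24 of the 29 and 17 of the 35 were longer than that last value. From the shortest to the longest quintile of all genes, the median log2 fold change went from -0.04 to 0.04, and the share of genes higher in all 3 numbers from 10.2% to 27.2%. The difference between the longest and the shortest quintile was -0.08 in number 1, 0.24 in number 2 and 0.07 in number 3 (mean 0.08 ± 0.16 SD, n = 3; exact sign-flip permutation test, two-sided, p = 0.75, with 0.25 the smallest p that 3 pairs allow). Its size was therefore below the spread between numbers. Aged library 2 also stood apart in loci that hold ribosomal RNA sequence, with Gm15564 at 7.41 log2 RPM against 3.43 to 4.94 in the other libraries. With the trend on length removed, 50 of the 64 genes still passed, 21 of the 29 that rose and 29 of the 35 that fell. The rises lost included Kcnd2, Reln, Grik3, Lmo3, Pcdhac1, Cxadr and Smoc1 (adjusted p from 0.0515 to 0.0927, limma). The falls lost included Ccl2, Ccl28, 2010011I20Rik and Rps4y2 (adjusted p from 0.0513 to 0.0584, limma).

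**Figure D4:**
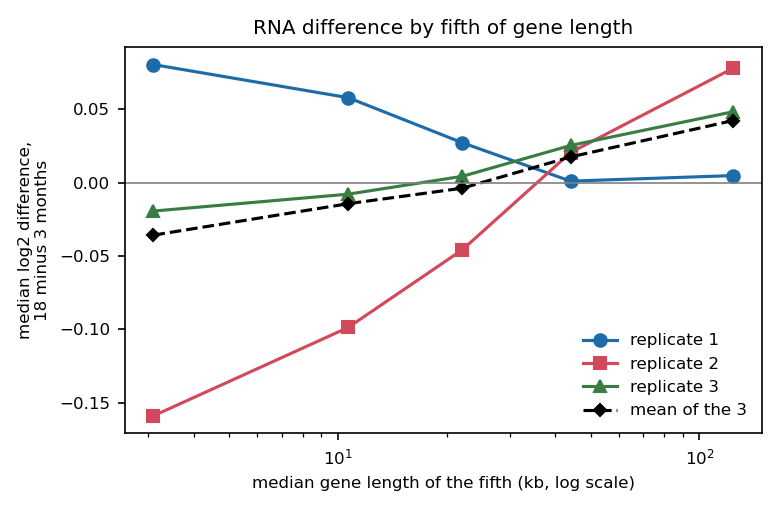
Median log2 RPM difference (18 minus 3 months) of the genes in each quintile of gene length, plotted at the median length of the quintile in kb on a log scale, for each replicate number and for the mean of the 3 (dashed). Number 2 climbs from -0.16 in the shortest to 0.08 in the longest quintile, number 1 runs from 0.08 to 0.00, and number 3 from -0.02 to 0.05.

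The promoters of the called genes could be compared with histone marks measured in the same kind of cultures. H3K4me3, a mark of active promoters, and H3K27me3, the mark set by Polycomb, were deposited as 1 value per age, although the labels list 3 libraries for each mark and age, so no error can be given. For each gene the window of 5000 bp around the annotated start with the most H3K4me3 was used, which was found for all 64 called genes and for 12810 genes in all. H3K4me3 was higher at 18 months by a median of 0.21 (log2) over all genes, and changes are therefore given against that shift. Of the 35 genes that fell, 1 (Tnfaip8) exceeded it, with a median of -0.26 below all genes, and of the 29 that rose 19 exceeded it, with a median of 0.07 above. Windows with little H3K4me3 had a smaller shift over all genes (0.06 in the lowest quintile against 0.21 to 0.23 in the others), and 18 of the 35 genes that fell were in that quintile. Set against the median of their own quintile, a comparison added after the data were seen, 31 of the 35 were below and 20 of the 29 above. After subtraction of the Input, 8 of the 35 and 18 of the 29 exceeded the shift of all genes.

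**Figure D5:**
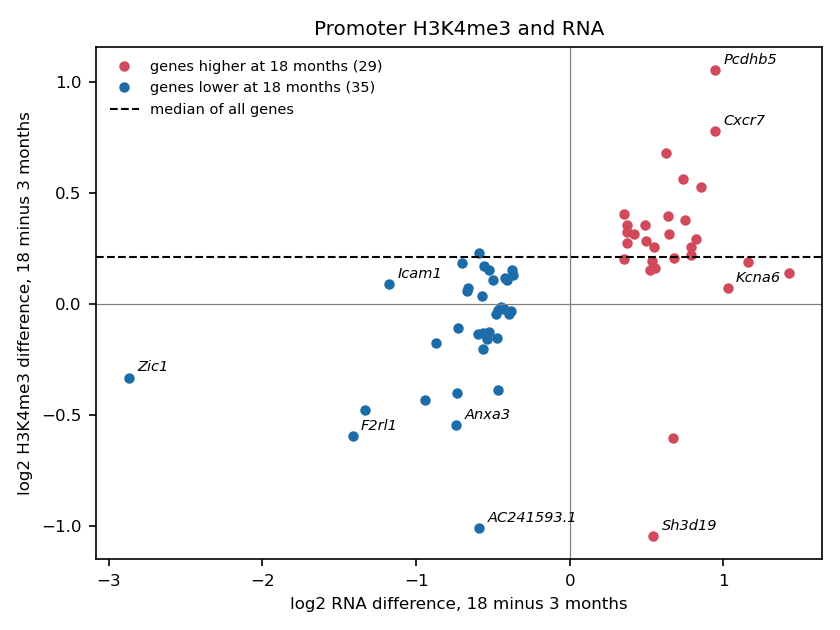
Promoter H3K4me3 difference against RNA difference (both log2, 18 minus 3 months) for the 29 genes that rose (red) and the 35 that fell (blue); each point is 1 gene, and the dashed line is the median H3K4me3 difference of all genes (0.21). All blue points but 1 lie below the line, while 19 red points lie above it.

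Pcdhb5 (from 0.78 to 1.83 log2 RPM) and Cxcr7 (from 4.09 to 4.87) had the largest rises of H3K4me3 among the genes that rose. At Zic1 H3K4me3 went from 5.23 to 4.90 and at Anxa3 from 4.41 to 3.87, while Icam1 (1.35 and 1.44) hardly differed. At Sh3d19 (-1.17 and -2.22) and Kcnma1 (0.03 and -0.57), which rose in RNA, H3K4me3 was below the Input in the window used. H3K27me3 exceeded 1 log2 RPM at either age in 19 of the 29 genes that rose and 21 of the 35 that fell, against 23.1% of all genes. This cut lay near the Input, whose median over all genes was 0.92 at 3 months and 0.97 at 18 months. A gene past it therefore need not carry the mark. At AC241593.1, for example, H3K27me3 was 1.26 at 3 months and the Input 2.52. Against the median over all genes it was higher at 18 months in 26 of the 35 that fell and 12 of the 29 that rose. Zic1 (6.00 and 6.17 log2 RPM) and Reln (5.17 and 5.02) carried both marks at both ages.

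Promoter 5-methylcytosine (5mC), read by oxidative bisulfite sequencing in 3 libraries per age, differed little. Over the windows of the 35 genes that fell it was 30.7%, 32.5% and 35.1% of summed calls at 3 months and 32.2%, 32.9% and 37.5% at 18 months, higher in all 3 numbers, with a mean difference of 1.40 ± 1.03 percentage points (SD, n = 3; exact sign-flip permutation test, two-sided, p = 0.25, the smallest p that 3 pairs allow). Over the 29 that rose it was 24.7%, 22.8% and 22.2% against 24.3%, 20.0% and 22.6% (-0.96 ± 1.67, p = 0.5 by the same exact test). All 12810 windows went from 21.8% ± 0.26 to 22.3% ± 0.38 (n = 3), and this 0.54-point difference was itself higher in all 3 numbers. Against the shift of all windows, the genes that fell differed by 0.68, -0.25 and 2.15 points in numbers 1 to 3 (mean 0.86) and those that rose by -1.17, -3.42 and 0.10 (mean -1.50), so that neither kept one direction. Each library had 2637 to 4787 calls over either set of windows, which is too few for the single genes.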

How the data were processed

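Indexed mRNA libraries were made by the authors with a kit that does not keep the strand. The authors deposited gene values as log2 RPM. The submitters' notes name STAR (2.3.0) and Trim Galore among the tools and the build GRCm38, with no role for each. Of the values between 1 and 1000 reads, 100% in each library corresponded to whole reads within 0.02 reads, larger values were rounded, and genes without reads stood at 0.9 reads. The 2 C57BL/10 libraries were left out, and total bisulfite calls were not used. Genes whose log2 RPM averaged -2 or more (14858) were fitted with limma (3.58.1; R 4.3.3), mean-variance trend, replicate number as block, two-sided, Benjamini-Hochberg over all 14858. Only genes averaging 0 or more and not on X or Y are reported. Alternatives were edgeR (4.0.16) and DESeq2 (1.42.0) on the recovered reads. The fit was also run on simulated data. There both ages had an identical replicate effect or none, so these runs do not test the pairing. The authors' methods place the 3 derivations on different days but do not say which cultures of the 2 ages shared a day, so the pairing comes from the numbers and the check given above (r of at least 0.20). The ChIP columns, deposited as log2 RPM, hold 1 value per age. Methylation was summed from the counts of methylated and unmethylated calls in the files the authors deposited, made with Bismark (0.12.5) per the submitters' notes. Calls were added up over a window, so no minimum per site was set. Genes named are the 12 largest rises and falls, up to 4 per list past the threshold, up to 2 with the largest one-directional difference in lists without any, cell type markers and genes the study discusses. Tm4sf1, Zic4, Gm15564, Sh3d19 and AC241593.1 with Gm7120 were named after their values were seen. The genes and the 50 lists were chosen with earlier results of these data known. Of the 64 genes past the threshold, 1 is counted but not reported here.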

Additional observations from a re-analysis of the deposited data

How the results depend on the processing

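All 64 genes kept their direction under each of 14 alternatives, but several of these could not have reversed it. Removing the block, the trend or the filter, or fitting the reported genes alone, leaves the limma fold change as it is. Leaving out 1 number cannot reverse a gene with one direction in all 3. The genes of the naming rule and all 64 past the threshold came to 129. Of these, 0 reversed in a setting where the main fit or the alternative called the gene. The counts of calls changed more. Without the replicate block limma called 0 higher and 0 lower, as did edgeR without the block (an alternative added after the data were seen) and limma without a mean-variance trend, and 0 of the gene lists then held a call without the block. Quantile normalization left 16 higher and 21 lower genes, in 11 lists instead of 18, and no filter on low values gave 53 lower. Leaving out the libraries of 1 number gave 19 to 227 higher and 40 to 239 lower genes, in 17 to 40 lists. All 64 genes passed without number 1 and without number 2, and 12 of the 29 and 21 of the 35 without number 3; 1 residual degree of freedom is left in these fits. edgeR with the block called 31 higher and 41 lower genes (63 of the 64) and DESeq2 25 and 45 (52 of the 64, but 3 of the 7 of at least 2-fold). With Input subtracted, 8 instead of 1 of the fallen genes exceeded the H3K4me3 shift of all genes. Of 300 list medians 16 moved by more than the SD of the 3 numbers, in 12 lists. The difference between the longest and the shortest quintile of genes was -0.00 to 0.15 with 1 number left out and 0.08 by quantile normalization or at a mean log2 RPM of at least 2. Without 1 number the 5mC difference was -1.60 to -0.01 points for the risen and 0.91 to 1.94 for the fallen genes. The design of 3 pairs limits every test.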

Other observations

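Further gene lists had 0 genes past the threshold in the limma fit, and their counts are given beside the 16.2% higher and 13.3% lower in all 3 numbers over all genes. Among 18 long noncoding RNAs and imprinted genes, Ndn, which encodes the growth suppressor necdin, differed by -0.56 ± 0.11 (SE) and Malat1, a nuclear noncoding RNA, by 0.51 ± 0.10 (adjusted p = 0.0571 each, limma), while 5 of the 18 were higher and 5 lower in all 3 numbers. Of 38 proteasome genes 9 were lower and 0 higher in all 3 numbers, with the largest difference at the immunoproteasome subunit gene Psmb8 (-0.47 ± 0.18). Among 36 genes of heat shock and the unfolded protein response 10 were lower and 2 higher, and Hspb6, a small heat shock protein, differed by -0.36 ± 0.09.

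Of the secreted signalling lists, the Wnt pathway held 9 higher and 9 lower genes of 33, with its antagonist gene Dkk3 at -0.76 ± 0.15 (adjusted p = 0.0532, limma), and the BMP and TGF-beta pathway held 10 higher and 9 lower of 34.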
